A study of Arabidopsis thaliana with 6 samples.

Results

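The phenylpropanoid, lignin and sinapate genes of Arabidopsis thaliana were examined in plants that expressed the grapevine transcription factor VvMYBPAR. The set holds 40 loci of the 32627 on the array and was chosen by pathway step: PAL, C4H, 4CL, lignin and sinapate enzymes, UGT84A and UGT72E glucosyltransferases, lignin MYBs, and KFB proteins that turn over PAL. All 40 were measured, 34 of them by 1 feature and 6 by several. Where a locus had several, the brightest feature is reported, and the others are given where they differed from it.

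The study compared a pair of constructs in the Columbia ecotype, 35S::VvMYBPAR and the empty vector, with each in 3 separately cultured transgenic lines. The 35S promoter is active in most plant tissues, so the factor was not restricted to the cells in which such MYB proteins normally act. Lines PAR18-2, PAR9-2 and PAR36-4 (replicates 1, 2 and 3) carried the MYBPAR construct, and lines Cont1-1, Cont2-3 and Cont5-1 (replicates 1, 2 and 3) carried the empty vector. Both groups were grown to an age of 3 weeks at 22 °C with 16 h of daily light, on medium with kanamycin at 30 mg per litre, and were harvested whole. Each line gave 1 Cy3 array, so line, culture and array cannot be told apart.

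Phenylalanine ammonia-lyase (PAL) opens the pathway by turning phenylalanine into cinnamate. Cinnamate 4-hydroxylase (C4H) and 4-coumarate:CoA ligase (4CL) then make p-coumaroyl-CoA, from which one branch leads through chalcone synthase to flavonoids and tannins and another to lignin monomers and sinapate esters. In Arabidopsis, xylem and other thickened cell walls hold the lignin, and leaves hold sinapoylmalate as an ultraviolet screen.

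Values are log2 of RMA expression values, and differences are MYBPAR minus empty vector on the log2 scale. Median intensities were 859 to 887 on the 6 arrays, and pairs of arrays correlated over all features with r of 0.987 to 0.991 in the MYBPAR group and 0.989 to 0.993 in the empty vector group. Features fell into a dim and a bright mode, divided at a log2 value of 7.08, and a signal in the dim mode may be background. The grapevine transcript itself was not read here. BAN, the anthocyanidin reductase gene of the tannin branch, had log2 values of 11.69, 10.63 and 10.43 in PAR18-2, PAR9-2 and PAR36-4 and between 4.67 and 4.76 in the empty vector lines, a rise of 6.21 (SE 0.33; limma, adjusted p = 0.0283). The difference of BAN was 5.82 to 6.45 when 1 array was left out, but its adjusted p passed only without PAR18-2 (0.00141) and was 0.0562 to 0.545 without any other 1 array. CHS, the chalcone synthase gene, had a difference of 0.29 (SE 0.16; limma, adjusted p = 0.915) with no overlap between the groups, or 0.14 without Cont1-1. PAR9-2 stood apart in its clock genes, as the lowest array for 5 of 7 and the highest for 2. The morning gene CCA1 was at 7.54 there and between 11.62 and 13.50 on the other 5 arrays, while the evening genes TOC1 and ELF4 were highest there, at 13.72 and 13.20.

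No gene of the set passed the test between the groups. The smallest adjusted p of the 40 was 0.915 (limma, Benjamini-Hochberg over all 37118 features), and 0.00539% of all features passed at the threshold of 0.05. Before adjustment 3 of the 40 were higher at p under 0.05 and 0 were lower, against 2.41% higher and 1.91% lower among all features. These 3 were MYB58, 4CL3 and 4CL2. The count changed when 1 line was left out. It was 0 without PAR9-2, where 1.4% of all features were higher and 0.924% lower. Without PAR18-2 it was 1 higher and 1 lower, against 3.98% and 4.21% of all features. Without Cont1-1 it was 1 higher, against 2.65%. It was 2 higher without PAR36-4, Cont2-3 or Cont5-1, against 2.16%, 2.65% and 1.7%. With fewer arrays p can rise though a difference holds. Without PAR9-2 the differences of MYB58 and 4CL2 were 0.33 and 0.28, against 0.36 and 0.31 with all arrays. In 5 genes all MYBPAR lines lay above all empty vector lines, against 6.32% of all features, and in 1 gene they lay below, against 3.67% of all features. With counts this small, the set's shares of 12.5% and 2.5% were not tested against those of all features.

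The size of any difference was bounded for most of the genes. The median log2 difference was 0.02, the same as over all features, with 22 genes above 0 and 18 below. All 40 differences lay between -0.39 and 0.87, and 38 were under 0.5 in size. For 37 of 40 the 95% interval from limma, which takes no account of how many features were tested, lay inside a 2-fold change either way, as it did for 85.1% of all features. The 3 intervals that reached 2-fold were those of 4CL3, UGT84A1 and CCR2.

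**Figure D1:**
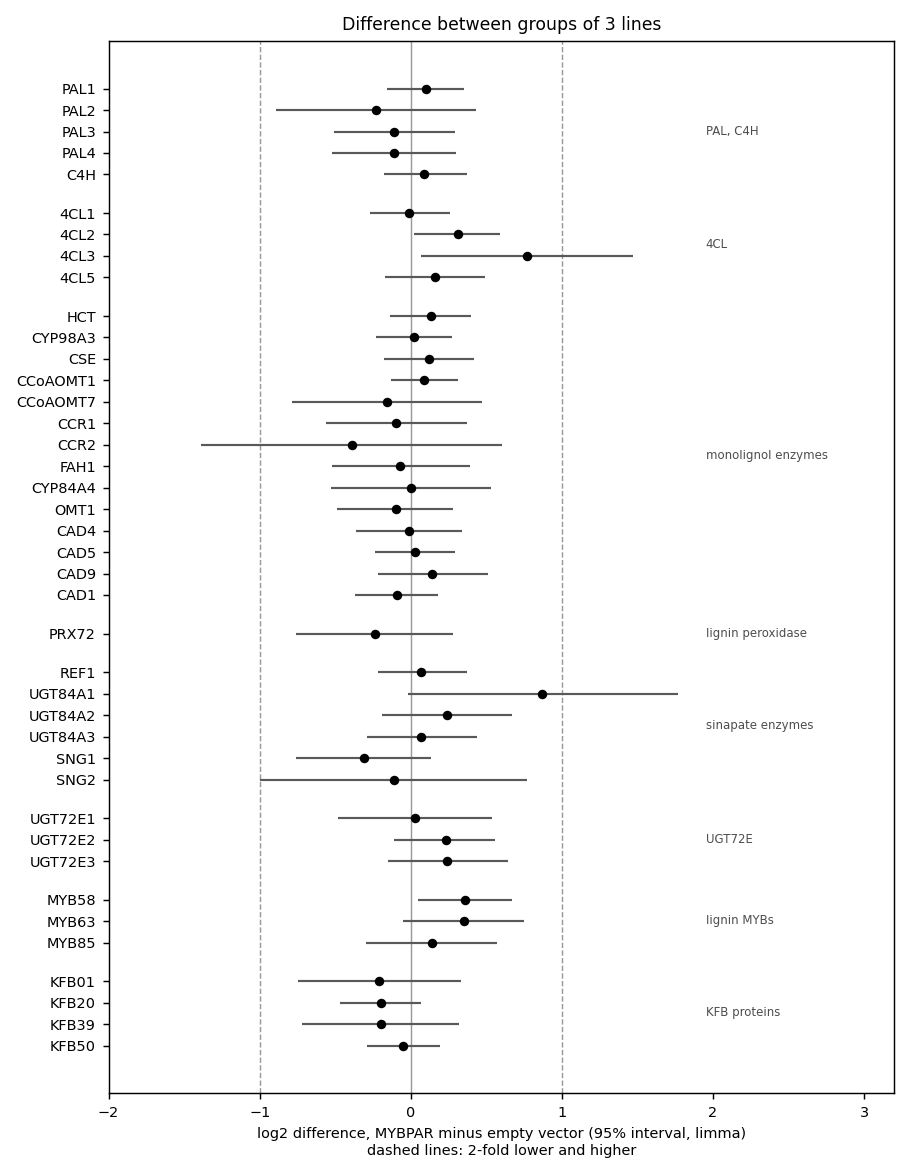
Log2 difference between the MYBPAR and empty vector groups (points) with its 95% limma interval (bars) for the 40 genes, ordered by pathway step, with dashed lines at a 2-fold change either way. The points lie between -0.39 and 0.87, and 37 of the 40 intervals stay inside the dashed lines.

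At the entry step, 2 of 5 genes were above 0 and 3 below, with a median of -0.11, and none passed. The median was 0.04 without PAR9-2 and 0.02 without Cont5-1. PAL1 (AT2G37040), one of the main PAL isoforms, had 12.84, 12.76 and 12.82 in PAR18-2, PAR9-2 and PAR36-4 and 12.59, 12.80 and 12.74 in Cont1-1, Cont2-3 and Cont5-1. The groups overlapped, and the difference was 0.10 (SE 0.10, 95% interval -0.16 to 0.35). C4H (AT2G30490), the P450 enzyme of the next step, differed by 0.09 (SE 0.11, 95% interval -0.18 to 0.37), and the upper limits of the intervals correspond to 1.28-fold for PAL1 and 1.29-fold for C4H. Its highest value was 13.96 in PAR9-2 and its lowest 13.67 in Cont1-1.

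PAL2 (AT3G53260), the other main isoform, varied more than PAL1. It read 14.14, 13.21 and 13.94 in the MYBPAR lines and 13.70, 14.23 and 14.05 in the empty vector lines. PAR9-2 was the low array, and the range over the 6 arrays was 1.03, against 0.26 for PAL1. The group difference was -0.23 (SE 0.27) with PAR9-2 and 0.04 without it. PAL4 (AT3G10340) had -0.11 (SE 0.17), which became 0.01 without PAR9-2. PAL3 (AT5G04230), whose enzyme has little activity compared with the other isoforms, had -0.11 (SE 0.17), or 0.00 without PAR9-2. PAR9-2 gave the lowest value of PAL2, PAL3 and PAL4 and the highest of C4H.

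The 4CL genes held 2 of the 3 smallest p-values of the set. 4CL3 (AT1G65060), the ligase isoform tied to flavonoid synthesis, had 10.62, 11.25 and 10.66 in PAR18-2, PAR9-2 and PAR36-4 and 9.57, 10.53 and 10.14 in Cont1-1, Cont2-3 and Cont5-1. All MYBPAR lines lay above all empty vector lines, by a gap of 0.095, and the spread was widest in the empty vector group through the low Cont1-1. The difference was 0.77 (SE 0.29), a 1.70-fold ratio with a 95% interval of 1.05 to 2.76, and it did not pass (limma, adjusted p = 0.915). A dimmer feature of this locus had 7.24, 7.66 and 6.78 against 6.34, 6.76 and 6.42, a difference of 0.72 (SE 0.24). That feature lay in the dim mode on 4 of 6 arrays, among them all empty vector lines. Its groups did not overlap, but PAR36-4 only just exceeded Cont2-3. Without PAR9-2 the difference of the brighter feature was 0.56, and without Cont1-1 it was 0.51.

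4CL2 (AT3G21240), which serves mainly the lignin branch, had 11.39, 11.47 and 11.36 in the MYBPAR lines and 11.10, 10.94 and 11.25 in the empty vector lines. The MYBPAR values were close together and all higher, by a gap of 0.11. The difference was 0.31 (SE 0.12; limma, adjusted p = 0.915), and it was 0.28 without PAR9-2. 4CL5 (AT3G21230), which can also activate sinapate, read 10.61, 10.32 and 10.45 against 10.10, 10.39 and 10.40. Here the groups overlapped, and the difference was 0.16 (SE 0.14).

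4CL1 (AT1G51680), the main lignin isoform, had 13.76, 13.83 and 13.89 against 13.69, 13.92 and 13.89. The groups lay on top of each other, with a difference of -0.01 (SE 0.11). Its second feature, in the dim mode, disagreed: it had 5.77, 5.46 and 5.17 against 4.76, 4.77 and 4.87, a difference of 0.67 (SE 0.17; limma, adjusted p = 0.915). The groups did not overlap in this dim feature. Before adjustment its p was 0.00645 (limma), smaller than that of any brightest feature of the set. Averaging both features gave 0.33. The files used here hold no probe sequences, so which transcripts each feature reads was not examined.

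The 14 monolignol enzymes were split evenly, with 7 above 0, 7 below and a median of -0.01, which was -0.09 without Cont1-1 and 0.07 without PAR9-2. HCT (AT5G48930), which moves the coumaroyl group onto shikimate, had 14.62, 14.39 and 14.45 against 14.26, 14.40 and 14.42. PAR18-2 and PAR36-4 exceeded all empty vector lines but PAR9-2 did not, and the difference was 0.13 (SE 0.11). CYP98A3, which hydroxylates that shikimate ester, had 0.02 (SE 0.10), and CSE, the esterase that releases caffeate, had 0.12 (SE 0.12). CCoAOMT1, the methyltransferase that makes feruloyl-CoA, was the steadiest of the 14, with a range of 0.13 over the 6 arrays. Its MYBPAR values of 14.29, 14.28 and 14.30 all lay above the empty vector values of 14.18, 14.25 and 14.17, but the gap was 0.029 and the difference 0.09 (SE 0.09). Its second feature had 0.03 with overlapping groups. CCoAOMT7, a related methyltransferase, had -0.16 (SE 0.26), or -0.08 without PAR9-2 and 0.02 without PAR36-4.

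The reductases and the enzymes of syringyl units included several with a low value in PAR9-2. CCR2 (AT1G80820), a cinnamoyl-CoA reductase known for induction by pathogens, had 10.57, 8.96 and 9.74 in the MYBPAR lines and 9.77, 10.42 and 10.26 in the empty vector lines. The MYBPAR group held both the highest and the lowest array of this gene. Its difference was -0.39 (SE 0.41), the lowest of the 40, and it was 0.00 without PAR9-2 and -0.80 without PAR18-2. CCR1, the main reductase of lignin synthesis, had -0.10 (SE 0.19) with PAR9-2 and 0.09 without it. FAH1, the ferulate 5-hydroxylase that opens the syringyl and sinapate route, had -0.07 (SE 0.19), or 0.13 without PAR9-2, and OMT1, the caffeate O-methyltransferase, had -0.10 (SE 0.16), or 0.04 without it.

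The last step to monolignols is catalysed by cinnamyl alcohol dehydrogenases. CAD4 and CAD5, the main isoforms in lignin, had -0.01 (SE 0.14) and 0.03 (SE 0.11), and the minor isoforms CAD9 and CAD1 had 0.14 (SE 0.15) and -0.09 (SE 0.11). The second features of CAD5 and CAD9 had -0.03 (SE 0.14) and 0.24 (SE 0.13). Each of the CAD genes had overlapping groups. CYP84A4, a relative of FAH1 that acts in the synthesis of pyrone compounds, had a difference of 0.00 (SE 0.22). PRX72 (AT5G66390), a class III peroxidase that couples monolignols in the wall, had 11.81, 11.24 and 11.43 against 11.89, 11.94 and 11.38. Its difference was -0.24 (SE 0.22), and -0.11 without PAR9-2.

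**Figure D2:**
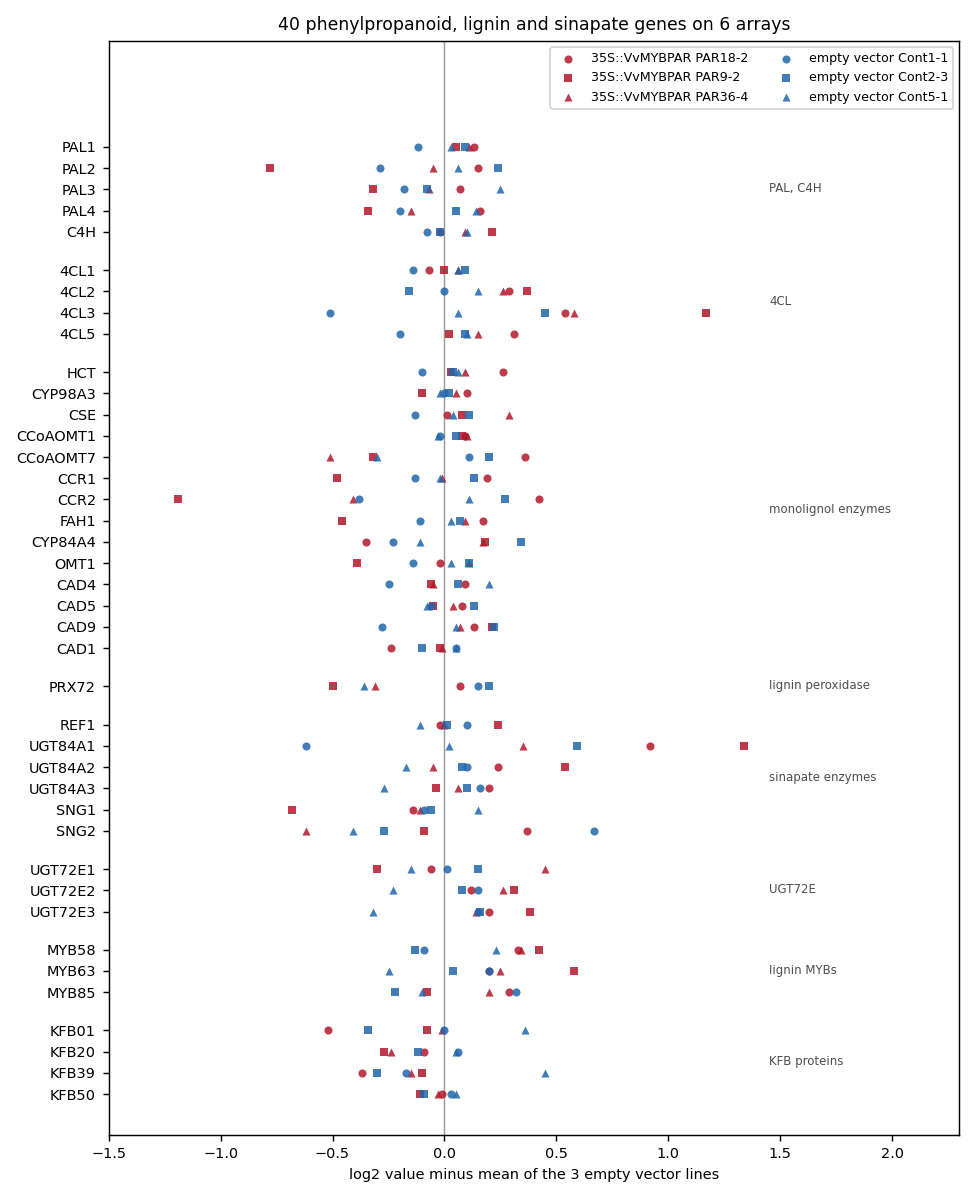
Log2 value of each of the 40 genes on each of the 6 arrays, with the average of the 3 empty vector lines set to 0, and with MYBPAR lines in red and empty vector lines in blue. PAR9-2 (red squares) gives the lowest array for 13 genes, among them PAL2, CCR2 and SNG1, and the highest for 10, among them 4CL3 and UGT84A1.

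In the sinapate branch 4 of 6 genes were above 0, with a median of 0.07 and none past the threshold. The median was -0.02 without Cont5-1 and 0.19 without Cont1-1. REF1 (AT3G24503), the dehydrogenase that oxidises sinapaldehyde to sinapate, had 13.48, 13.74 and 13.50 against 13.60, 13.51 and 13.39, a difference of 0.07 (SE 0.12), or -0.01 without PAR9-2. The UGT84A enzymes attach glucose to sinapate and related acids. UGT84A1 (AT4G15480) had 8.42, 8.84 and 7.85 in the MYBPAR lines and 6.88, 8.09 and 7.52 in the empty vector lines. Its groups overlapped, since Cont2-3 exceeded PAR36-4, and its range of 1.96 was the widest of the 40 genes. The difference of 0.87 (SE 0.37) was the largest of the set, a 1.83-fold ratio with a 95% interval of 0.984 to 3.41 (limma, adjusted p = 0.915). It was 0.64 without PAR9-2 and 0.56 without Cont1-1, whose value of 6.88 lay in the dim mode and may be background.

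UGT84A2 (AT3G21560), the isoform that makes most sinapoylglucose in leaves, had 11.47, 11.77 and 11.18 against 11.33, 11.31 and 11.06. PAR9-2 was again the high array, and the difference was 0.24 (SE 0.18), or 0.09 without it. UGT84A3 had 0.07 (SE 0.15).

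SNG1 (AT2G22990), which transfers sinapate from its glucose ester to malate in leaves, had 13.79, 13.25 and 13.82 in the MYBPAR lines and 13.84, 13.87 and 14.08 in the empty vector lines. It was the 1 gene whose MYBPAR values all lay below, by a gap of 0.016. The difference was -0.31 (SE 0.18), and it was -0.13 without PAR9-2. The other features of this locus had differences from -0.31 to -0.22 with overlapping groups. SNG2, its counterpart for sinapoylcholine in seeds, lay in the dim mode on all 6 arrays, between 4.65 and 5.94, with a difference of -0.11 (SE 0.37). Seed storage and oleosin markers were in the dim mode too, with 5 of 6 below 7.08 on every array.

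The UGT72E enzymes glucosylate monolignols and their aldehydes, and all 3 genes were above 0 with overlapping groups. UGT72E2 (AT5G66690) had 13.29, 13.48 and 13.43 against 13.32, 13.25 and 12.94, a difference of 0.23 (SE 0.14). UGT72E3 (AT5G26310), its close relative, had 12.25, 12.43 and 12.19 against 12.20, 12.21 and 11.73, a difference of 0.24 (SE 0.16). In both genes Cont5-1 was the low array, and without it the differences were 0.11 and 0.09. UGT72E1 (AT3G50740) read 12.55, 12.31 and 13.06 against 12.62, 12.76 and 12.46, a difference of 0.03 (SE 0.21). Signal shared between such related genes could not be separated here.

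The lignin MYB genes were all above 0, with a median of 0.35, or 0.23 without Cont5-1. MYB58 and MYB63 encode related activators of lignin enzymes, and MYB85 acts in the secondary wall programme. MYB58 (AT1G16490) had the smallest p of the 40 genes when each was read by its brightest feature. Its values were 8.21, 8.30 and 8.22 in the MYBPAR lines and 7.79, 7.75 and 8.11 in the empty vector lines, with no overlap and a gap of 0.10. The difference was 0.36 (SE 0.13), a 1.28-fold ratio with a 95% interval of 1.03 to 1.59 (limma, adjusted p = 0.915), and it was 0.33 without PAR9-2.

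MYB63 (AT1G79180) had 7.58, 7.96 and 7.63 against 7.58, 7.42 and 7.13. PAR18-2 exceeded Cont1-1 by only 0.0082, and the difference was 0.35 (SE 0.17; limma, adjusted p = 0.915), or 0.23 without PAR9-2. MYB85 lay in the dim mode, between 6.40 and 6.94, with 0.14 (SE 0.18).

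**Figure D3:**
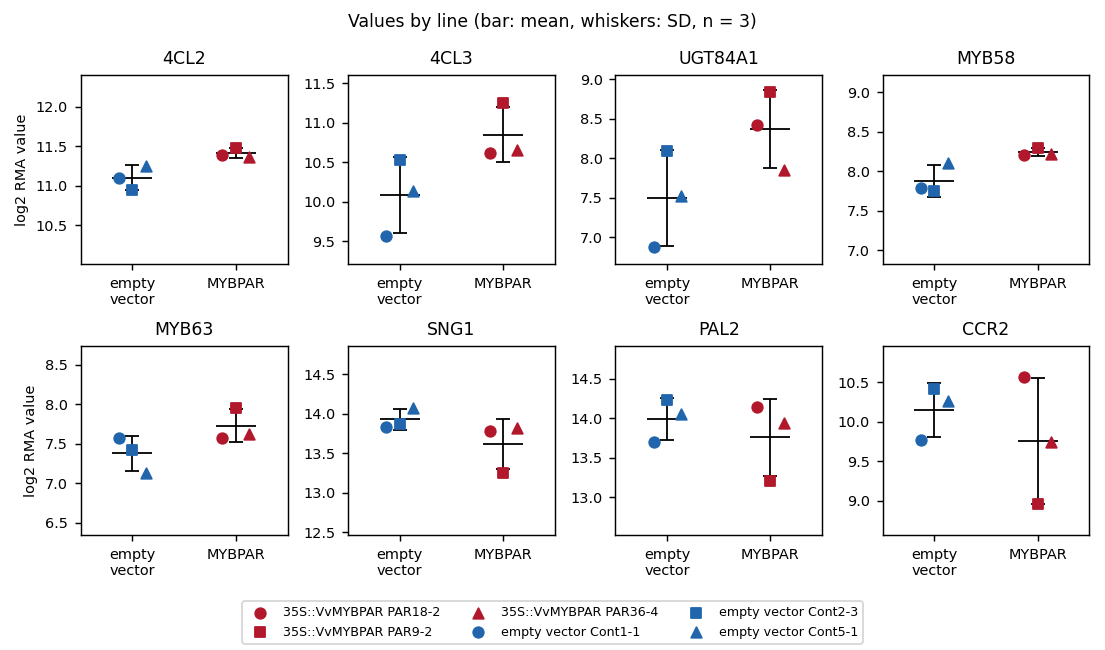
Log2 RMA values of 8 genes by line (points), with the group mean (bar) and SD (whiskers, n = 3); each panel spans the same height on the log2 scale. 4CL2, 4CL3, MYB58 and MYB63 are higher and SNG1 is lower with no overlap between the groups, MYB63 and SNG1 by gaps of only 0.0082 and 0.016. PAR9-2 is the lowest array of PAL2, SNG1 and CCR2.

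The KFB genes encode kelch-repeat F-box proteins that mark PAL for degradation, and all 4 were below 0, with a median of -0.20, or -0.03 without Cont5-1. KFB20 (AT1G80440) had 14.61, 14.43 and 14.46 in the MYBPAR lines and 14.76, 14.58 and 14.75 in the empty vector lines. PAR18-2 exceeded Cont2-3, so the groups overlapped, and the difference was -0.20 (SE 0.11; limma, adjusted p = 0.915). KFB01 (AT1G15670) had 12.14, 12.58 and 12.65 against 12.66, 12.32 and 13.02, a difference of -0.21 (SE 0.22). Cont5-1 was its high array, as it was for KFB39, and without that line KFB01 had -0.03 and KFB39 had 0.03 in place of -0.20. KFB50 stayed within a range of 0.16 over the 6 arrays and had -0.05 (SE 0.10). These arrays measure transcripts, and PAL protein was not measured here.

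The set varied between arrays about as much as all features did. The range over the 6 arrays, which includes any group difference, had a median of 0.54 in the set and 0.56 over all features. PAR9-2 was the lowest array for 13 of the 40 genes, or 32.5%, where it was the lowest for 21.2% of all features, and the highest for 10, or 25%, where it was the highest for 23.8%. Cont1-1 was the lowest array for 10 genes, among them PAL1, C4H, 4CL3, HCT and UGT84A1. That is 25% of the set, against 16.6% of all features. PAR18-2 was the highest array for 10 genes, or 25%, where it was the highest for 13.6% of all features. These shares were not tested.

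Genes next to the pathway were read from lists of 101 measured loci in all. Over 10 genes of monolignol polymerisation (laccases, peroxidases and wall proteins), 3 were above 0 and none passed, with a median of -0.10. The smallest p there belonged to the peroxidase gene PRX4 at -0.62 (SE 0.35) and to ESB1, a dirigent protein gene of the Casparian strip, at -0.28 (SE 0.19). Of 16 regulators of secondary walls 14 were above 0, as were 53.7% of all features, and none passed, with a median of 0.13 and 5 genes in the dim mode on all arrays. NST1, a NAC master regulator, had 6.36, 7.83 and 7.80 against 5.74, 7.0 and 6.28, a difference of 0.99 (SE 0.49) with overlapping groups. NST1 lay in the dim mode on 4 of 6 arrays, among them all empty vector lines. MYB42 had 0.23 (SE 0.16).

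Repressors and mediator subunits had 3 of 6 above 0, a median of 0.02 and none past the threshold. MYB4, which represses C4H and sinapate ester synthesis, had 11.21, 11.98 and 11.29 against 10.77, 11.02 and 10.70, with no overlap and a difference of 0.66 (SE 0.23; limma, adjusted p = 0.915), or 0.42 without PAR9-2. MYB7 had -0.21 (SE 0.15). Among proteins that serve the P450 enzymes, 1 of 5 was above 0 and none passed, with a median of -0.03, MSBP2 at 0.14 (SE 0.10) and the reductase gene ATR2 at -0.08 (SE 0.11). In the gene cluster around SNG1, 2 of 5 were above 0 and none passed, with a median of -0.09. SCPL9 had 9.45, 10.04 and 9.65 against 9.28, 9.29 and 8.91, a difference of 0.56 (SE 0.19; limma, adjusted p = 0.915), or 0.39 without PAR9-2, and SCPL11 had 0.21 (SE 0.11).

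Coumarin genes, whose products root cells secrete under iron shortage, had 8 of 8 above 0 and a median of 0.40, with none past the threshold. CYP82C4 had 8.10, 8.29 and 9.84 against 7.43, 7.74 and 8.16, a difference of 0.97 (SE 0.48), and MYB72, in the dim mode, had 0.49 (SE 0.25). The list mean, relative to the empty vector lines, was 0.00 in PAR18-2, 0.48 in PAR9-2 and 0.80 in PAR36-4 and between -0.14 and 0.16 in the empty vector lines. Root markers, whose mean level was 9.88 to 10.06 in the MYBPAR and 9.81 to 9.85 in the empty vector lines, had a median difference of 0.05 over 7 genes, 5 of them above 0 and none past the threshold. Among them WOX5, a root stem cell niche gene in the dim mode, had 0.48 (SE 0.12). Their part in the coumarin values was not tested.

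Among 7 genes of hydroxycinnamic acid amides, 4 were high in lines of both groups: SHT, TSM1, CYP98A8 and CYP98A9, whose products go into the pollen coat. SHT, the spermidine hydroxycinnamoyl transferase, had 7.36, 9.89 and 10.84 in the MYBPAR lines and 6.18, 11.16 and 7.34 in the empty vector lines. PAR9-2, PAR36-4 and Cont2-3 were high, and PAR18-2, Cont1-1 and Cont5-1 were low. The P450 gene CYP98A9 had the same high lines, with 8.76, 11.15 and 11.62 against 8.87, 11.36 and 8.48. ACT, an agmatine coumaroyltransferase gene, differed from these, with 9.45 in Cont1-1 and 5.85 to 7.22 on the other arrays, and SDT and SCT lay in the dim mode on all 6 arrays. Of the 7 genes 6 were above 0, with a median of 0.67, and none passed. The list's smallest p belonged to the acyltransferase gene SCT at 0.63 (SE 0.28), followed by CYP98A9 at 0.94 (SE 1.01). The 95% interval ran from -2.39 to 4.67 for SHT and from -1.51 to 3.39 for CYP98A9.

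Floral organ identity genes, taken as a mean, were highest in PAR9-2, PAR36-4 and Cont2-3. This list mean, relative to the empty vector lines, was 0.18, 0.93 and 1.04 in PAR18-2, PAR9-2 and PAR36-4 and -0.75, 0.71 and 0.04 in Cont1-1, Cont2-3 and Cont5-1. All 7 were above 0 in the group comparison, with a median of 0.73 and none past the threshold, SEP1 at 0.74 (SE 0.24) and AP1 at 0.80 (SE 0.35). In these 2 genes Cont2-3 was close to PAR18-2 and Cont5-1: SEP1 had 10.71 in Cont2-3, 10.89 in PAR18-2 and 10.56 in Cont5-1, and AP1 had 10.91, 10.80 and 10.87. Their mean level was 9.48 to 10.34 in the MYBPAR and 8.55 to 10.02 in the empty vector lines, and none was in the dim mode on all arrays. In whole plants, more cells of a type and more RNA per cell cannot be told apart. The part of flower development in any value above was not tested.

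Xylem wall markers were nearly level between the groups. Their mean level was 11.17 to 11.28 in the MYBPAR lines and 11.20 to 11.22 in the empty vector lines, and the median difference was 0.05 over 10 genes, 7 of them above 0 and none past the threshold. COBL4, a COBRA-like wall protein gene, had 0.24 (SE 0.09), and FRA8, a xylan synthesis gene, had -0.53 (SE 0.23), or -0.34 without PAR9-2. Leaf markers had a mean level of 12.90 to 13.70 in the MYBPAR and 13.51 to 13.70 in the empty vector lines, with 3 of 5 above 0, a median of 0.02 and none past the threshold. The low end was again PAR9-2, where CAB2, a light-harvesting gene, was at 6.61 against 9.35 to 10.35 elsewhere. The list as a whole was not low there: PAR9-2 was the lowest array for 2 of the 5 leaf markers and the highest for 3. Its list median, relative to the empty vector lines, was 0.05.

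**Figure D4:**
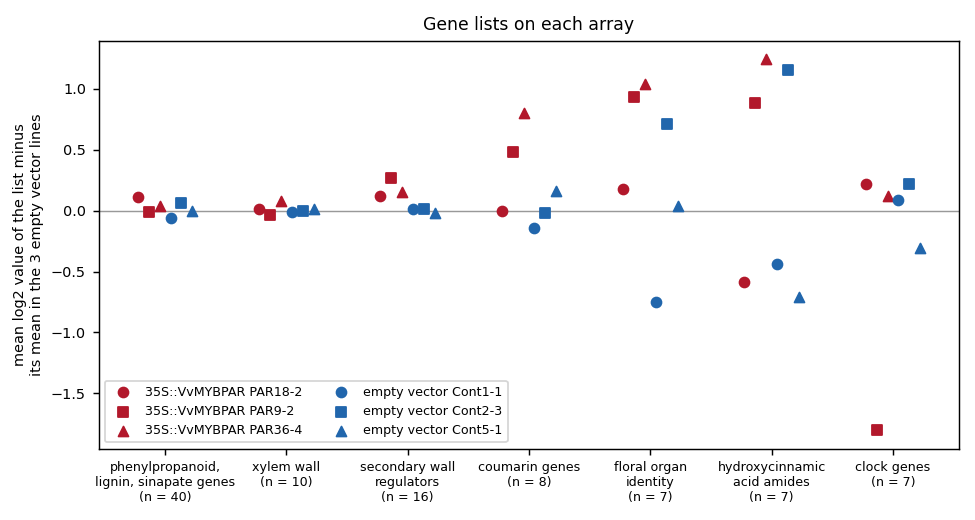
Mean log2 value of 7 gene lists on each array, with the average of the 3 empty vector lines set to 0, and with MYBPAR lines in red and empty vector lines in blue. The 40 phenylpropanoid, lignin and sinapate genes and the xylem markers stay near 0 on every array, while the means of the floral and hydroxycinnamic acid amide lists are highest in PAR9-2, PAR36-4 and Cont2-3 and the mean of the clock genes is lowest in PAR9-2, where 2 of its 7 genes are nevertheless at their highest.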

How the data were processed

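Whole-plant RNA of 6 lines, 3 per construct, was read on NimbleGen arrays. Per the file headers, the deposited values of each array are linear intensity estimates per feature. The submitters' processing notes name RMA, and the series table that the authors deposited holds the same values as log2. No source used here gives the software version, the background model or the probe design. Symbols were checked against RefSeq (TAIR10.1).

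Log2 values of all 37118 features were fitted by lmFit and eBayes of limma 3.58.1 (R 4.3.3), with no covariate and with all 6 arrays. P-values were Benjamini-Hochberg adjusted over all features, with a threshold of 0.05. The procedure was also run on simulated data with independent noise for each feature. That noise held no shifts shared by many genes of a line, and the changes put in exceeded every difference of the set. The run therefore does not show how well differences of this size would be found. The smallest p that an exact permutation test of 3 against 3 allows is 0.1, and none was used. The number of arrays limits the precision.

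The genes and lists were chosen with earlier results of these data known. All 40 genes are named, with values per array for the 12 smallest p-values and the first gene of each step, and from each other pathway list the 2 genes with the smallest p. Array values of PAL2, CCR2, CCoAOMT1, CCA1, TOC1, ELF4 and CAB2, the values of SHT, ACT and the other amide genes and the marker genes named were chosen after their values were seen. PRX2 of the polymerisation list was not analysed here. Alternatives were other normalizations, the series table, other variance estimates, a filter on dim features, a pseudocount, the replicate number as a block, feature means and leaving out each array.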

Additional observations from a re-analysis of the deposited data

How the results depend on the processing

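The count of 0 genes of the set past the threshold held under all 15 alternatives, with a smallest adjusted p between 0.588 and 1.00. Before adjustment, the fit of all arrays had 3 of the 40 higher at p under 0.05. Alternatives that kept all arrays gave 2 to 4 higher. The 4 came from means over the features of a locus, where 2.43% of all loci were higher. With trend and robust variance estimates 1 was also lower, against 1.88% of all features. Leaving out 1 array gave 0 to 2 higher, with 0 without PAR9-2, where 1.4% of all features were higher. The median difference stayed between 0.00 and 0.07. Of 599 values of single genes under alternatives, 598 moved by less than the spread between replicates. The exception was 4CL1, with 0.33 as a mean over its features. Most of the others could not have moved more, so the count is no measure of stability. Leaving out 1 of 3 arrays cannot shift a difference past that spread. The series table, the other variance estimates and the replicate block give the same differences as the main fit. When each array was left out in turn, 22 of the 40 genes kept their sign, and the most changed sign, 10, without MYBPAR replicate 2 (PAR9-2). Over all features 2 were called, BAN among them, and 0 with no moderation, 0 with the replicate block and between 0 and 3 when 1 array was left out: 0 without MYBPAR replicate 2 or 3 or any 1 empty vector replicate, and 3 without MYBPAR replicate 1. BAN's adjusted p lay between 0.00141 and 0.914 over the alternatives fitted per feature, with 0.914 with no moderation and 0.123 with the replicate block, and its difference between 5.08 and 6.45. The cause was not tested. Deviations of same-numbered arrays correlated at 0.295, -0.0579 and 0.240. Arrays of different numbers were not compared in this way, so these values do not decide whether the numbers pair the arrays. SNG2 and MYB85 lie in the dim mode, where a difference in transcript may not show. UGT84A1 lay there on 1 array, that of Cont1-1.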
